A study of Arabidopsis thaliana with 6 samples.

Results

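Distal intergenic peaks of the Arabidopsis thaliana line OE9-1 are described here. Each is a region that the authors' list calls as a peak of the chromatin protein AtDEK3. Enrichment at single peaks was not checked here. The midpoint of each lay outside every annotated gene and more than 1000 bp from every protein-coding gene. These peaks numbered 985 of the 3733 peaks of OE9-1, or 26.4% (exact 95% interval 24.98 to 27.8%), and 985 of 12491 peaks in the 3 lists of the series. The members were chosen by the called positions of this same library, so the share is a description and was not tested. Gene spans came from the RefSeq table of assembly TAIR10.1, and peak positions are those of the authors' lists on TAIR10. Transposable elements that are not entered as genes in that table are not marked, so distal sequence can hold them.

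The series holds 3 chromatin immunoprecipitation libraries (ChIP-seq) and 3 inputs from nuclei of Col-0 seedlings grown on soil for 14 days in 16 h of light and 8 h of dark. All plants overexpress AtDEK3 carrying a cyan fluorescent protein tag (CFP), and an antibody against green fluorescent protein pulled down the chromatin. The lines OE3-1, OE9-1 and OE17-4 are independent overexpressors with 1 library each, and the labels state neither the promoter of the transgene nor how many seedlings went into a library. The inputs, and plants without the transgene, were not analysed here. Reads inside peaks numbered 1235876, 814853 and 549029 in OE3-1, OE9-1 and OE17-4, and the depth of the libraries is unknown.

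DEK proteins bind DNA and histones and are known to change how tightly chromatin is packed. In the compact Arabidopsis genome most genes lie close together. Wide gaps between genes occur around regulators of development, which carry long regulatory sequence, and in the heterochromatin around the centromeres, which is rich in silenced transposons and tandem repeats. No genome sequence was used, so the bases under the peaks are not shown.

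Distal sequence made up 20.1 Mb, or 16.9% of the bases of the 5 nuclear chromosomes. OE9-1 had 49.0 distal peaks per Mb of it. The same line had 53.7 peaks per Mb in the 1 kb on either side of genes and 21.6 per Mb inside protein-coding genes. Inside genes of other types it had 11.3 per Mb. Distal peaks were thus nearly as dense as those beside genes. In OE17-4 the distal class held 265 of 3426 peaks, at 13.2 per Mb, and in OE3-1 it held 88 of 5332, at 4.38 per Mb. Both of those lines had their highest density inside protein-coding genes, with 39.5 and 74.7 per Mb. Inside genes of other types OE17-4 had 32.8 per Mb and OE3-1 12.8. The distal share of the 3 lines was 11.9% ± 12.9 (SD, n = 3), a spread as wide as the mean itself. The authors' Wilcoxon filter was cut at unlike limits, with a highest p-value of 8.88e-04 in OE17-4 and 0.1 in the other lists. Under a common limit of 8.88e-04, OE9-1 kept 242 distal of 850 peaks, OE17-4 265 of 3426 and OE3-1 57 of 1980. The distal shares were then 28.5%, 7.7% and 2.88%. Differences between lines in density, or in counts of gaps and genes, therefore depend on these limits.

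Distance to genes varied widely among the OE9-1 members. The midpoint lay 2157 bp from the nearest protein-coding gene in the median (95% order-statistic interval 2041 to 2304 bp). The middle of the distribution ran from 1458 to 3927 bp (quartiles), and the farthest member lay 185584 bp away. Up to 2000 bp lay 448 members, or 45.5%, and beyond 10000 bp lay 102, or 10.4%. Medians in the other lines were 1773 bp in OE3-1 (1575 to 1981 bp) and 2739 bp in OE17-4 (2350 to 3486 bp). OE3-1 had 4 of 88 peaks beyond 10000 bp, and OE17-4 had 67 of 265.

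Density per Mb of distal sequence is the fairer measure, since far less sequence lies at some distances than at others. In OE9-1 it was level from 1000 to 5000 bp, with 59.1 peaks per Mb at 1000 to 1500 bp (exact Poisson 95% interval 52.3 to 66.6) and 61.1 at 3000 to 5000 bp (51.9 to 71.4). At 5000 to 10000 bp it was 40.5 (32.5 to 50.01) and beyond 10000 bp 21.5 (17.6 to 26.1). OE17-4 stayed between 11.2 and 14.1 peaks per Mb in all 6 distance classes. OE3-1 went from 6.84 at 1000 to 1500 bp to 0.844 beyond 10000 bp. All intervals on densities and shares cover counting error only, and neighbouring peaks of 1 library are not independent.

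**Figure D1:**
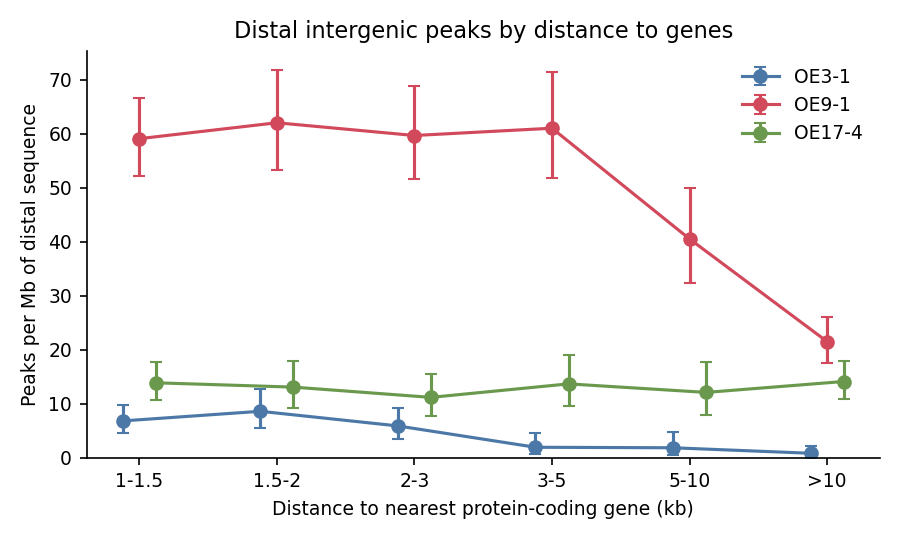
Density of distal intergenic peaks (vertical axis, peaks per Mb of distal sequence) by distance to the nearest protein-coding gene (horizontal axis, kb) in each line, with exact Poisson 95% intervals as bars. OE9-1 is level near 60 peaks per Mb up to 5 kb and lower beyond, OE17-4 is level throughout, and OE3-1 is lowest.

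The lower density far from genes was seen where genes are sparse. The nuclear chromosomes were cut into bins of 100 kb and ordered by their number of protein-coding genes, and the lowest 20% were called gene-poor (0 to 17 genes). All 102 members beyond 10000 bp lay in such bins, where 4.72 of the 4.74 Mb of sequence at that distance also lies. At 5000 to 10000 bp the density was 34.1 per Mb in gene-poor bins (25.9 to 44.1) and 65.3 in the other bins (43.7 to 93.8), the latter from 29 peaks. At 1000 to 1500 bp it was 56.4 in gene-poor bins (40.8 to 76.0) and 59.7 elsewhere (52.1 to 68.0), so the bins differed little close to genes. Distance and gene-poor surroundings cannot be told apart beyond 10000 bp.

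Along the chromosomes, gene-poor bins held 362 members, or 36.7% (exact 95% interval 33.7 to 39.8%), and 49.2% of distal bases. With the bins split by gene number into 5 groups of equal size, OE9-1 had 36.6 peaks per Mb in the gene-poor group and 54.5 to 64.8 in the other groups. OE17-4 had 15.0 per Mb in the gene-poor group, from 148 peaks, and 8.70 in the richest, from 11, the opposite order. The richest group held 4.15% of the distal OE17-4 peaks (2.09 to 7.31%), an interval that includes the 6.3% of distal bases there. Gene-poor bins held 55.8% of the distal OE17-4 peaks (49.6 to 61.9%). OE3-1 had 1.11 per Mb in the gene-poor group and 14.2 at the most, in bins of 27 to 30 genes. Where reads of 36 bp can be placed uniquely was not known, and its part in these densities was not tested.

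**Figure D2:**
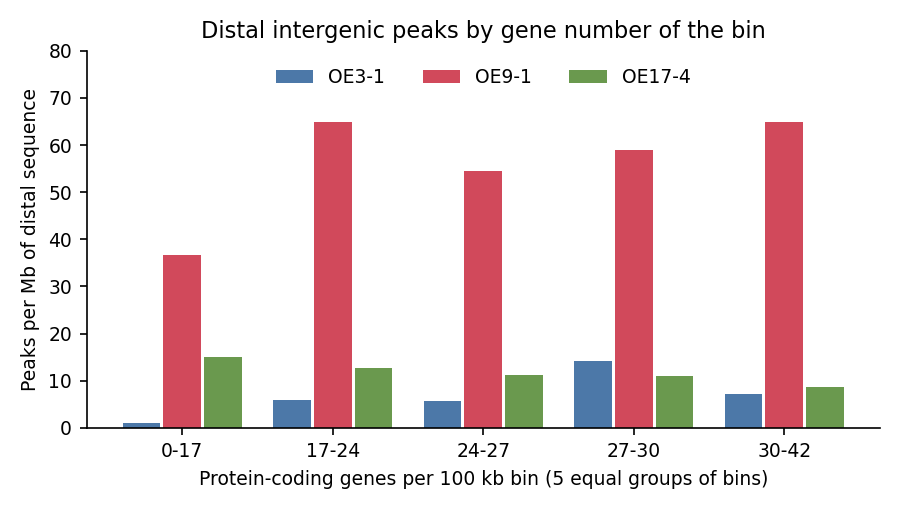
Density of distal intergenic peaks (vertical axis, peaks per Mb of distal sequence) in 5 equal groups of 100 kb bins ordered by their number of protein-coding genes (horizontal axis), 1 bar per line. OE9-1 is at 36.6 in the gene-poor group and at 54.5 to 64.8 in the others, and OE17-4 is highest in the gene-poor group.

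Chromosomes differed moderately. Chromosome 2 had 58.4 members per Mb of its distal sequence, chromosome 5 53.1, chromosome 3 48.6, chromosome 1 43.7 and chromosome 4 41.9. Chromosome 2 held 21.8% of members (19.3 to 24.5%) and 18.3% of distal bases. Over 121 windows of 1 Mb the number of members ran from 0 to 27 with a median of 7, and 3 windows were empty. The highest window was chr3:11000001-12000000.

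Between neighbouring protein-coding genes there were 6337 gaps with distal sequence, and 822 of them, or 13.0%, held an OE9-1 member. A single member lay in 704 gaps and 2 or more in 118. The share of gaps with a member went up with the amount of distal sequence, from 2.59% of gaps with up to 1 kb of it to 53.2% of gaps with over 10 kb. Per Mb the members were level across the gaps with up to 10 kb, at 54.2 to 62.8, and lower in the widest gaps, at 31.5. Within a gap they were spread evenly. The distal stretch was split from its edge to its middle into 4 zones of equal length, each with 25% of the bases. From edge to middle the zones held 24.97%, 25.1%, 27.01% and 22.9% of members, and each exact interval included 25%.

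**Figure D3:**
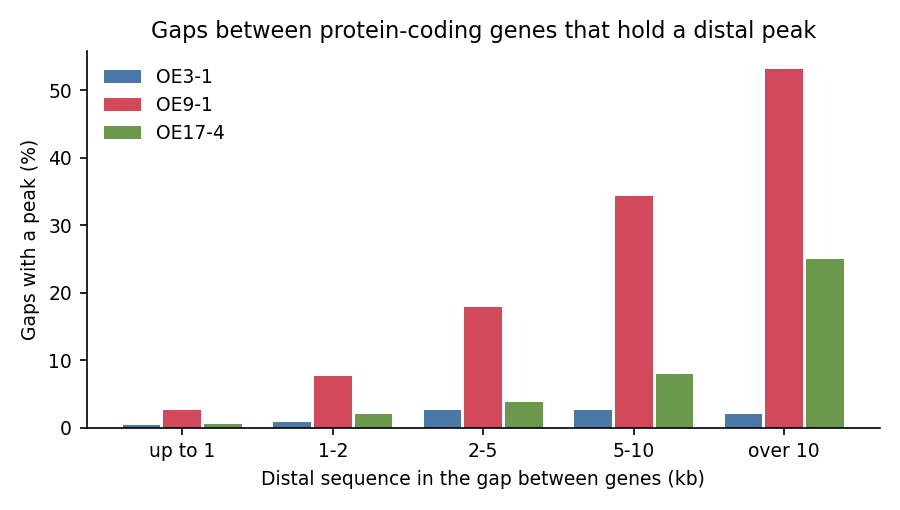
Share of gaps between protein-coding genes that hold a distal peak (vertical axis, %) by the distal sequence in the gap (horizontal axis, kb), 1 bar per line. In OE9-1 it runs from 2.59% of the narrowest gaps to 53.2% of the widest.

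The 3 gaps with most members were wide. The gap from AT5G30495 to AT5G31412 on chromosome 5, with 66.7 kb of distal sequence, held 9 members and 1 distal OE17-4 peak. On the same chromosome the gap from AT5G30520 to AT5G32440, with 308.6 kb, held 6 members and 9 distal OE17-4 peaks. On chromosome 4 the gap from AT4G08097 to AT4G08140, with 65.1 kb, held 5 members and 1 distal OE17-4 peak. No distal OE3-1 peak lay in any of these gaps.

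A much narrower gap of 6.66 kb on chromosome 2, between AT2G03567 and AT2G03580, held 4 members, and was chosen for description after its values were seen. They lay at chr2:1088257-1088314, chr2:1089154-1089220, chr2:1090518-1090684 and chr2:1091654-1091742, with 81, 113, 66 and 91 reads and false discovery rates (FDR) of 3.09%, 0.67%, 3.11% and 3.31%. All 4 had fewer reads than the median member. Over all members, neighbours lay 61360 bp apart in the median, 112 of 980 neighbouring pairs lay within 5000 bp of each other, and 25 within 1000 bp.

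Reads per peak are the authors' counts and were not used by the rule. The members held 40 to 8349 reads with a median of 169 (95% order-statistic interval 164 to 173), and quartiles of 128 and 210. OE9-1 peaks beside genes had a median of 189 (184 to 195) and those in protein-coding genes 234 (230 to 240). Distal peaks were therefore the ones with fewest reads in this line, at 0.722 times the median inside genes. In OE3-1 the medians were 176, 186 and 213 for distal, flanking and genic peaks. In OE17-4 they were 110, 107 and 142. In each of the 3 lines the distal median lay below that inside genes, and in OE17-4 the distal and flanking intervals overlapped (107 to 116 and 101 to 112). With 3 lines an exact 2-sided test cannot go below p = 0.25, and none was run.

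**Figure D4:**
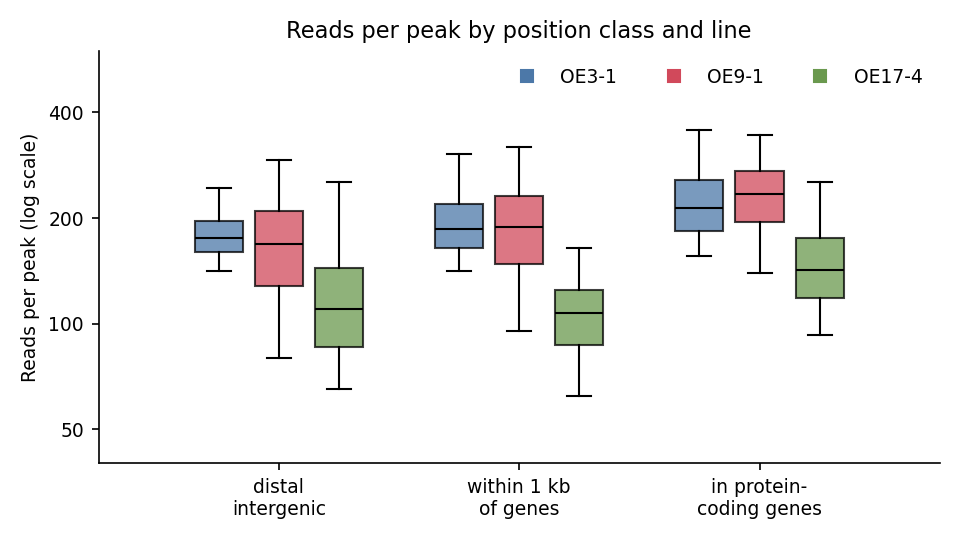
Reads per peak (vertical axis, log scale) for distal intergenic, flanking and genic peaks of each line, with boxes at the quartiles, the median as a line and whiskers at the 5th and 95th percentiles. In every line the genic box lies highest, with medians of 213, 234 and 142 reads in OE3-1, OE9-1 and OE17-4.

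OE9-1 members were longer than genic peaks, with a median of 89 bp against 70 bp, and they ranged from 21 to 382 bp. Reads per bp of peak were 1.93 in the median member and 3.38 in the median genic peak, a ratio of 0.572. The authors' FDR was 2.61% in the median member and 2.88% in the median genic peak of OE9-1, and 19.7% of members had an FDR of 1% or less, against 14.5% of genic peaks. In the other lines the order was the reverse, with a median FDR of 2.69% in distal and 2.31% in genic peaks of OE3-1, and of 1.41% and 1.01% in OE17-4. Forward and reverse reads were balanced over the class, with more forward reads in 50.3% of members with unequal counts (47.1 to 53.5%). In the distal OE17-4 peaks that share was 37.4% (31.4 to 43.6%). The authors' p-value of the Wilcoxon filter was over 0.05 in 163 members, and 83 members were shorter than a 36 bp read.

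A small group of members stood apart by reads. Those with 1000 reads or more numbered 7 and held 12.7% of all reads of the class, while the next member had 537. Of these, 5 lay in the gap from AT5G30520 to AT5G32440 on chromosome 5. The peak at chr5:11709106-11709157 had 8349 reads, 4061 forward and 4288 reverse, with an FDR of 1.14e-11%. The peak at chr5:11755133-11755496 had 5599 reads and chr5:11706588-11706969 had 3301. The latter had 2110 forward against 1191 reverse reads. Then came chr5:11754504-11754791 with 2319 reads and chr5:11822116-11822329 with 2237, the member farthest from any protein-coding gene. The nearest genes of any type to these peaks were pseudogenes, among them AT5G31787 and AT5G31770, and the microRNA gene MIR5643b.

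The other members with 1000 reads or more were chr2:3307502-3307525, 24 bp long with 1753 reads, and chr2:3314968-3315031 with 1180. They lay 2863 bp from AT2G07774 and 1497 bp from AT2G07629. This part of chromosome 2 is known to carry a large insertion of mitochondrial DNA in Col-0. How many copies of these sequences the plants carry was not measured, and its part in the read numbers was not tested. Over all members the median reads were 172 at 1000 to 1500 bp and 180 at 2000 to 3000 bp. They were lower farther out, at 154 for 5000 to 10000 bp and 150 beyond 10000 bp. Members in gene-poor bins had a median of 152 reads, and those in the other 4 groups of bins 167 to 189.5.

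**Figure D5:**
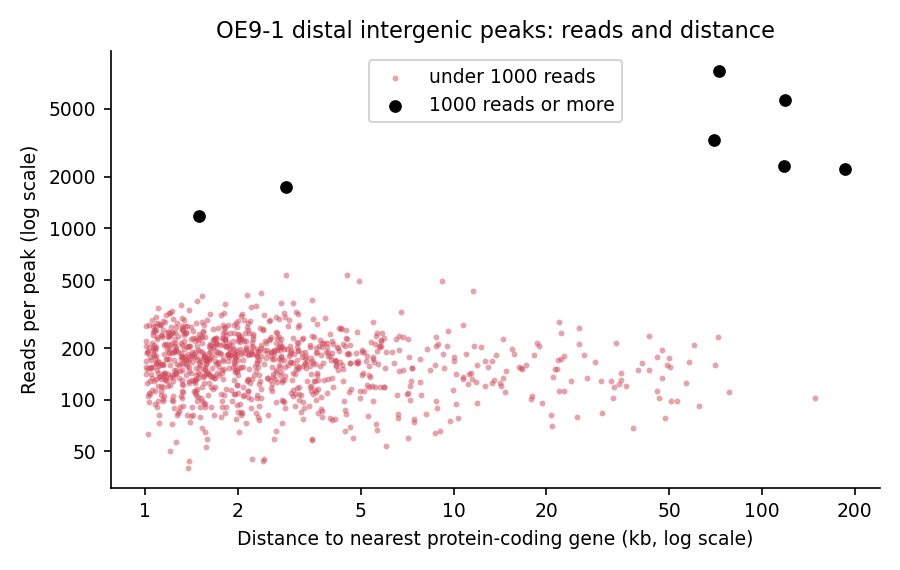
Reads per peak (vertical axis, log scale) of the 985 OE9-1 distal intergenic peaks against the distance to the nearest protein-coding gene (horizontal axis, kb, log scale), 1 point per peak. The 7 black points hold 1180 to 8349 reads, 5 of them far from protein-coding genes, and every other point lies at or below 537.

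Ranked by FDR, 4 of those chromosome 5 peaks led the class. The next was chr2:11965462-11965510, with 155 forward and 155 reverse reads and an FDR of 0.04%, 2046 bp from AT2G28080. It was followed by chr5:6121055-6121156 near AT5G18460 with 315 reads, chr2:7349767-7349839 near AT2G16940 with 192, and chr5:17412219-17412284 with 178. The last lay 1037 bp from PHT1;3, a phosphate transporter gene. The peak chr4:5278765-5278832, with 154 reads, lay 7360 bp from GTA2, which encodes an SPT5 transcription elongation factor. The ranking continued with chr3:22352039-22352221 near AT3G60490 with 225 reads and an FDR of 0.07%. The peak chr1:10955851-10955897, with 189 reads, lay 5034 bp from DIS2, a subunit gene of the actin-nucleating ARP2/3 complex. The twelfth, chr2:1410426-1410481 with 174 reads, lay 2626 bp from AIR3, a subtilisin-like protease gene. Apart from the chromosome 5 peaks in that gap, these members with the lowest FDR held 154 to 315 reads. Only the peak near GTA2 lay below the class median of 169.

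The limit of the class cut through a continuous range. Just inside it lay chr4:13292079-13292137, 1004 bp from GolS6, with 221 reads, chr1:5733135-5733238, 1004 bp from AT1G16760, with 141, and chr4:7384651-7384727, 1006 bp from AT4G12450, with 206. Just outside lay chr4:11237408-11237477, 999 bp from DOF4.4, with 224 reads, chr4:2735070-2735150, 999 bp from AT4G05380, with 95, and chr1:18691447-18691553, 997 bp from AT1G50450, with 126.

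Genes of any type lay closest as follows. A protein-coding gene was the nearest gene of 520 members, or 52.8% (exact 95% interval 49.6 to 55.9%), and of 40.5% of distal bases. A pseudogene, the class in which the table enters transposable element genes, was nearest for 284 members, or 28.8% (26.02 to 31.8%), and for 44.1% of distal bases. Members closest to pseudogenes had a median of 152 reads, and those closest to protein-coding genes 175. Genes of long non-coding RNAs were nearest for 119 members, or 12.1% (10.1 to 14.3%), against 10.1% of bases, and transfer RNA genes for 9, or 0.914%, against 0.907%. Some gene of another type lay within 1000 bp of 250 members.

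MicroRNA genes were nearest for 23 members, or 2.34% (1.49 to 3.48%), and for 1.36% of distal bases. These genes were singled out after their values were seen. The closest were MIR5645a, MIR395a and MIR447b, at 102, 117 and 123 bp from peaks with 112, 226 and 240 reads. Several of the others belong to families that repress developmental regulators, and a selection of those is described below. MIR172d, whose family targets AP2-type factors, lay 492 bp from chr3:20587382-20587443 with 266 reads. MIR164c, of the family that restrains the organ boundary CUC genes, was nearest to chr5:9853548-9853697 with 234 reads, at 847 bp. It was also nearest to chr5:9850821-9850885 with 187 reads, at 1821 bp. MIR166a, which targets HD-ZIP III factors, was nearest to chr2:19173604-19173673 with 195 reads and chr2:19172588-19172678 with 67, at 2470 and 3475 bp. MIR160a, which targets auxin response factors, lay 1031 bp from chr2:16341361-16341428 with 180 reads. The peaks closest to MIR157a and MIR157b, whose family targets SPL factors, held 301 and 119 reads and lay 2263 and 3389 bp away. Apart from the peak near MIR5643b with 5599 reads, the peaks closest to microRNA genes held 67 to 301 reads.

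The nearest protein-coding genes of the members numbered 867, which is 3.16% of 27432 genes, and 775 of them were nearest to a single member. AT5G30495 was nearest to 6 members, AT5G30520 and AT5G31412 to 5 each, and AT1G36580, AT1G38131, AT4G08140 and LCR47, a gene for a small cysteine-rich protein, to 4 each. Only 10249 genes have any distal sequence to which they are nearest, and of these 8.46% were nearest to a member. For OE3-1 and OE17-4, 0.317% and 0.849% of all genes were nearest to a distal peak.

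Among regulators of meristems, embryos and organ identity, 4 of 26 listed genes were nearest to a member, of 22 that have distal sequence. STM, the homeobox gene that maintains the shoot meristem, lay 2650 bp from chr1:23064653-23064773 with 150 reads and an FDR of 0.92%. MP, an auxin response factor gene of the embryo axis, lay 1425 bp from chr1:6885196-6885292 with 252 reads and an FDR of 1.96%. PLT1, an AP2-type regulator of the root stem cell niche, lay 4519 bp from chr3:7295904-7295947 with 184 reads and an FDR of 2.93%. LEC2, a master regulator of embryo maturation, lay 1784 bp from chr1:9901645-9901676 with 174 reads, an FDR of 4.01% and a Wilcoxon filter p-value of 0.06. The 4 peaks held 150 to 252 reads, and only the peak near STM lay below the class median of 169.

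Of 18 auxin transport and synthesis genes, 15 of them with distal sequence, 2 were nearest to a member. PID, a kinase gene that directs auxin flow, lay 1261 bp from chr2:14593362-14593441 with 266 reads. That peak had an FDR of 1.97% and a Wilcoxon filter p-value of 0.07. YUC2, an auxin synthesis gene, lay 2559 bp from chr4:7718904-7718953 with 233 reads and an FDR of 3.0%. Of 20 flowering genes, 12 of them with distal sequence, only TFL1, a repressor of flowering, was nearest to one. It lay 1994 bp from chr5:1022487-1022526 with 288 reads and an FDR of 0.4%. Of 11 photosynthesis genes, 4 of them with distal sequence, only LHCB2.1, an antenna protein gene, was. It lay 2091 bp from chr2:1826533-1826609 with 106 reads and an FDR of 1.86%. None of 22 NLR immune receptor genes, 12 housekeeping genes and 4 DEK-domain genes was nearest to a member. No gene of these 7 lists was nearest to a distal peak of OE3-1 or OE17-4. Over all protein-coding genes only 0.317% and 0.849% were, against 3.16% for OE9-1. For lists this short, that absence shows no contrast between lines. Of the listed genes, 9 immune receptor genes, 5 housekeeping genes and no DEK-domain gene have distal sequence, so few of them could have been nearest. These counts are small and were not tested, and nothing particular to a list follows from them.

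The gene that the authors' lists name for each peak is mostly not the nearest one. Of 948 members whose named gene matched the table on the same chromosome, it lay on the lower-coordinate side in 944, or 99.6%. It was the nearest gene of any type in 423, or 44.6%. The nearest protein-coding gene lay on the lower side in 519 of 985 members, or 52.7% (49.5 to 55.9%). The same held for the distal peaks of the other lines, where the named gene lay on the lower side in 82 of 82 matched OE3-1 peaks and in 249 of 252 OE17-4 peaks. For the peak near AT5G18460 given above, for instance, the list names AT5G18450. Genes are therefore given here by position and not by the authors' column.

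Few members shared a position with another line. Overlap of at least 1 bp was found for 3 members with OE3-1 peaks and for 2 with OE17-4 peaks, all of them distal in both lines. That is 0.305% and 0.203% of members, and 3.41% and 0.755% of the distal peaks of OE3-1 and OE17-4. Over all 3733 OE9-1 peaks, 32 (0.857%) were overlapped by an OE3-1 peak and 10 (0.268%) by an OE17-4 peak, so overlap was rare throughout the list. For peaks beside genes the shares were 0.492% and 0.246%, and for peaks in protein-coding genes 1.58% and 0.358%. Exact intervals of the distal share ran from 0.0629 to 0.887% for OE3-1 and from 0.0246 to 0.732% for OE17-4. The interval for genic peaks and OE3-1, 0.991 to 2.38%, lay above the distal one, and no test was run. OE3-1 itself had 74.7 peaks per Mb in protein-coding genes and 4.38 in distal sequence. The part of this density in the overlap shares was not tested, so they do not show that distal sites are shared less. The overlapped member with most reads was chr5:11709106-11709157 with 8349. It overlapped the OE17-4 peak chr5:11709111-11709260, with 12312 reads and an FDR of 1.28e-50%, by 47 bp. The other OE17-4 overlap, at chr3:11776951-11777057, had 237 reads in OE9-1 and 248 in OE17-4, 6646 bp from AT3G30160. The overlaps with OE3-1 lay near OFP12, an ovate family gene, at chr1:1592227-1592298 with 206 and 183 reads, near MIR172d at chr3:20587382-20587443 with 266 and 178, and near AT5G28050 at chr5:10047758-10047881 with 190 and 189. Read numbers of different lines come from libraries of unknown depth and are set side by side only.

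Within 500 bp, 8 members had an OE3-1 peak and 18 an OE17-4 peak. Among the latter was chr5:11822116-11822329 with 2237 reads, 427 bp from an OE17-4 peak with 3175 reads. Of the 822 gaps with a member, 72 also held a distal OE17-4 peak, which is 8.76% of the OE9-1 gaps and 32.0% of the OE17-4 gaps. A distal OE3-1 peak lay in 20 of them, which is 2.43% and 23.0%. Over all 6337 gaps, 3.55% held a distal OE17-4 peak and 1.37% a distal OE3-1 peak. Gaps with more distal sequence held a peak more often than the narrowest gaps in each line, so shared gaps need not be shared sites. Gaps with a distal peak of all 3 lines numbered 2, one between AT1G42680 and AT1G42700 and one between FAD3, an omega-3 fatty acid desaturase gene, and NDA2, an alternative NADH dehydrogenase gene. In the latter the OE9-1 peak was chr2:12790557-12790649 with 297 reads, 2717 bp from NDA2.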

How the data were processed

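ChIP libraries of 3 independent lines were compared with each other as deposited peak lists, 1 list per library. The build was TAIR 10, per the submitters' processing notes. Which aligner and peak caller were used, and how the inputs entered, is not given in the sources used here. Reads per peak are counts deposited by the authors without normalization, per the file headers. The FDR is the authors' value in percent, the strand difference over all reads of a peak was deposited as a fraction by the authors, and the Wilcoxon filter p-value is the authors' too, per the file headers. The authors' limits differed, with a highest Wilcoxon p of 8.88e-04 in OE17-4 and of 0.1 in the other lists, and a highest FDR of 8.93% in OE3-1, 4.98% in OE9-1 and 4.99% in OE17-4.

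Repeated regions (1, 2 and 2 in OE3-1, OE9-1 and OE17-4) were dropped. Midpoints were classed against 27432 protein-coding and 37887 genes of any type in RefSeq TAIR10.1 (its coordinates are not printed). That table gives no strand, so promoters and gene ends were not told apart. The length of each chromosome was taken as the last gene or peak end. Densities divide peaks by the bases of the same class. Shares have exact Clopper-Pearson, densities exact Poisson and medians order-statistic 95% intervals. No test was run, since the members were chosen from the readout and each line is 1 library. The division by gene-poor bins within distance classes was added after seeing the data. Members and gene lists were chosen with earlier results of these data known. Named were the 12 members of lowest FDR, the 5 with most reads, the 5 farthest, those at the limit, overlaps, genes nearest to 4 or more members, the genes beside the 3 gaps with most members, and genes of 7 lists. The 2 farthest members not described by their reads were chr5:11928577-11928769, with 102 reads, and chr5:11463437-11463497, with 111. The classing was checked against invented genes and peaks of known class. Python 3.11.15, pandas 2.3.3, numpy 2.4.6 and SciPy 1.17.1 were used. Alternatives were other distance limits, whole peaks, genes of any type, the upper 50% by FDR, a common Wilcoxon limit, other bins, other overlaps, and the lists without rows written with 3 dots.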

Additional observations from a re-analysis of the deposited data

How the results depend on the processing

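Of 26 values under an alternative, 17 were counted as staying and 9 as moved. For the OE9-1 distal share, the median distance and the share in gene-poor bins, staying meant lying within the reported interval. No interval is given here for the ratio of median reads or for the number of overlapped members. Whether those values moved beyond counting error is therefore not shown. The mean distal share without each line counts among those that stayed, but its SD of 12.9 over 3 lines left little room to move. The distal share of OE9-1 was 39.7% with a limit of 500 bp, 14.4% with 2000 bp, 19.7% with distance counted to genes of any type and 28.5% under the common Wilcoxon limit, against 26.4% as reported. Under the common Wilcoxon limit OE9-1 kept 242 distal peaks, fewer than the 265 of OE17-4. Median reads of members over those of all other OE9-1 peaks were 0.793 by reads and 0.677 by reads per bp. Members overlapped by another line numbered 5, and 3 with at least 50% of the shorter peak and 26 within 500 bp. Leaving out OE3-1 or OE17-4 gave 2 to 3. The mean distal share without a line ranged from 4.69% without OE9-1 to 17.1% without OE3-1, against 11.9% with all lines, and so rests on OE9-1. A common FDR limit of 4.98%, added after seeing the data, leaves OE9-1 as it is and gave distal shares of 1.62% in OE3-1 and 7.71% in OE17-4. By construction, a wider limit leaves fewer members and a wider overlap more pairs, and for the other changes the cause was not tested. The median distance and the share in gene-poor bins stayed within their intervals under every alternative run. The alternatives without rows written with 3 dots and without a line for the overlaps were chosen after seeing the data, and no member is such a row. No paired analysis was possible because the ChIP libraries alone were analysed here, so no second group has values to pair them with. Depth of the libraries, the sequence of the peaks, and where reads can be placed limit all comparisons of reads and density.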
